A study of Mus musculus with 8 samples.

Results

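The genes of 3 liver enzymes of galactose and glyoxylate handling, Grhpr, Galt and Agxt2, were followed in the livers of SostPB/- and Sost-/- mice. They were picked by symbol from a count table of 55416 rows, and each of the 3 had 1 row. The livers came from 4 SostPB/- mice and 4 Sost-/- mice, with 1 poly-A RNA library per mouse, and all 8 mice were fed the MCD diet. In its usual sense MCD stands for a diet without methionine and choline, which brings on steatohepatitis. Sost is the gene of sclerostin, a secreted protein that blocks Wnt receptors, and the question of the series is what its overexpression does in steatohepatitis. PB is not spelled out in the labels, nor is it said which group overexpresses Sost, and both genotypes carry at least 1 Sost-null allele. The sources used here state no age, sex or background strain. The labels number the mice of each group as biological replicates and say nothing of litters or batches.

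The liver turns dietary galactose into glucose through a short chain of enzymes, in which Galt (galactose phosphate uridylyltransferase) exchanges galactose phosphate for the glucose phosphate held on UDP-glucose. In people, loss of GALT causes classic galactosemia. Glyoxylate is a reactive intermediate that becomes oxalate unless it is reduced or transaminated. Grhpr (glyoxylate and hydroxypyruvate reductase) reduces it to glycolate, and in people its loss causes a form of primary hyperoxaluria. Agxt2 is a mitochondrial aminotransferase that uses glyoxylate or pyruvate as amino acceptor and acts on aminoisobutyrate and asymmetric dimethylarginine, an inhibitor of nitric oxide synthesis. None of the 3 acts on fructose itself.

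All 3 genes are protein coding and lie on the plus strand of GRCm38. Grhpr (ENSMUSG00000035637) spans chromosome 4 from 44981395 to 44990734, Galt (ENSMUSG00000036073) chromosome 4 from 41755228 to 41758695, and Agxt2 (ENSMUSG00000089678) chromosome 15 from 10358532 to 10410153. Promoter letters from RefSeq (GRCm38.p6) are shown because the genes differ in them, a feature that played no part in how they were chosen. The windows are the 250 bases before the RefSeq start of Grhpr at chr4:44981144-44981393 and of Agxt2 at chr15:10358283-10358532, both on the plus strand. For Galt a 30-base stretch at chr4:41755463-41755492, plus strand, is shown, since GENCODE starts this gene further upstream and counts these bases as its first exon. Capitals mark GGGCGG (GC box) in Grhpr, CAAAGTCCA (a motif of the liver factor HNF4) in Agxt2 and CACGTG (E-box) in Galt, each on either strand.
Grhpr: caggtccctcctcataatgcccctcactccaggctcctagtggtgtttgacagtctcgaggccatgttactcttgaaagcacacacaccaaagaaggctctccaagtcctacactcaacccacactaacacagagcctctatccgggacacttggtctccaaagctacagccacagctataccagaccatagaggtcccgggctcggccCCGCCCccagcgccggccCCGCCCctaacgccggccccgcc
Agxt2: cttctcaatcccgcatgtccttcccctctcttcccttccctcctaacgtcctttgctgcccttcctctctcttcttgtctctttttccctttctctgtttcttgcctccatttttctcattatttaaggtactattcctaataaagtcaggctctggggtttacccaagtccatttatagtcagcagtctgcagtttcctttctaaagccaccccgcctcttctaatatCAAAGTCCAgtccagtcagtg
Galt: tgcccccaccgtCACGTGttggcgactagc

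The motifs were picked after the windows had been read, and each was searched on both strands of 27025 RefSeq promoters of the same 250-base length, 1 per gene. Grhpr held 2 GC boxes, which began 41 and 23 bases before its start, and Galt also held 2, while Agxt2 held none. A GC box stood in 33.0% of all promoters. Agxt2 held 1 match to CAAAGTCCA, beginning 21 bases before its start, and 0.377% of all promoters held one. It also held 1 match to TATAAA, found in 13.0% of promoters, beginning 77 bases before the start. Galt held 1 E-box, which stood in 6.04% of promoters. It further held 2 matches to CCAAT, found in 34.5%. All 250 bases searched for Galt lie before its RefSeq start at 41755517 but past its GENCODE start at 41755228. The windows of Grhpr and Agxt2 end at or just before their GENCODE starts, so the Galt window is not alike in place. Grhpr had no match to the other 4 motifs in its window. No motif overlapped another of those searched. These matches describe letters, and binding was not measured.

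Row names had to be checked before any level could be read, since over most of this table names and counts do not belong together. The stretches where names fit the counts were taken as given, chromosome 4 from 3.8 to 62.4 Mb and chromosome 15 from 8.1 to 35.9 Mb. The 1119 rows there, with the 3 genes among them, are called the stretch rows. Of protein-coding genes on these stretches, 241 of 436 (55.3%) reached a mean of 100 counts, against 3326 of 21428 (15.5%) on the rest of the nuclear genome. The fit was then checked around each of the 3 genes, and not over the rest of the stretches. In a window of 200 rows the annotated exons were moved in both directions by at most 1.5 Mb. Pearson's r was then taken at every position between log counts and the part of each row's moved exons that fell on exons of protein-coding genes. Around Grhpr the best position was the annotated one, a shift of 0 bp (r = 0.58, against at most 0.44 beyond 1 kb). Around Galt it was also 0 bp (r = 0.57, at most 0.46 beyond 1 kb), and around Agxt2 50 bp (r = 0.65, at most 0.57 beyond 1 kb). The Agxt2 window began at 3053108, before the 8.1 Mb edge of its stretch, so it also held rows outside the stretch. These correlations run across 200 neighbouring rows, which are not independent, and describe the place rather than the single gene.

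Overlapping annotation limits what the Galt row can hold. No source used here states the strand setting of the counting, so where exons of Galt overlap other annotation in GENCODE M21 the reads cannot be told apart, and the values of Galt are less certain for that. Il11ra1 spans the whole of Galt but shares 0 exon bases with it. Agxt2 shares 155 exon bases with the protein-coding model Gm21973, whose row held a mean of 0 counts. Grhpr overlaps no other annotated gene.

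All 3 genes were well expressed in these livers, and Grhpr stood above the other two. Levels between genes are given as CPM, counts scaled by TMM to a common library size, per kilobase of merged exon. Grhpr averaged 153 ± 27.4 CPM per kilobase in SostPB/- and 213 ± 41.0 in Sost-/- livers (SD, n = 4 each). Agxt2 averaged 67.0 ± 6.69 CPM per kilobase in SostPB/- and 55.8 ± 9.64 in Sost-/- livers. Galt averaged 59.9 ± 10.6 CPM per kilobase in SostPB/- and 62.4 ± 8.89 in Sost-/- livers. The lowest Grhpr library, at 135 CPM per kilobase, lay above the highest of either other gene, Galt at 75.6 in Sost-/- replicate 2. Agxt2 and Galt did not differ beyond their spread, and their order was not the same in the 2 genotypes.

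Among the 291 protein-coding genes tested on the stretches, the mean over 8 libraries put Grhpr at rank 19, Agxt2 at rank 59 and Galt at rank 60. Grhpr, at 183 CPM per kilobase, had 9.91 times the median of 18.5, while Agxt2 and Galt, at 61.4 and 61.1, had 3.32 and 3.31 times it. Its neighbours in that order were Vcp, an ATPase of protein extraction, at 212 CPM per kilobase, and Ugt3a2, a sugar-conjugating enzyme, at 179. Over single libraries the rank of Grhpr ran between 11 and 32, that of Agxt2 between 54 and 89 and that of Galt between 52 and 82. The bile acid conjugating enzyme Baat stood above Grhpr at 230.02 CPM per kilobase, and the fatty acid oxidation enzyme Decr1 at 254. Cyp7a1, which starts bile acid synthesis, had 153 CPM per kilobase and varied more between mice. With no division by exon length, the ranks among the same 291 genes were 53 for Grhpr, 85 for Agxt2 and 101 for Galt. By CPM, the rows of Grhpr, Agxt2 and Galt ranked 244, 402 and 504 among all 10020 rows tested. Most of those rows cannot be read by name, so that order is one of rows.

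**Figure D1:**
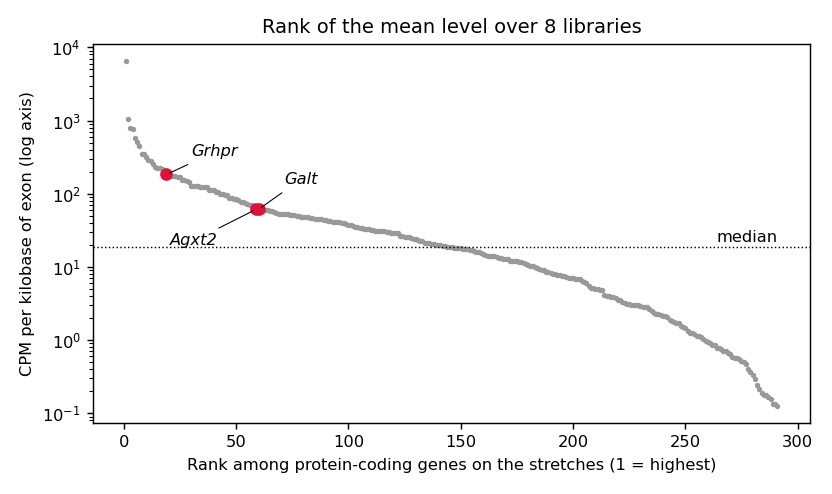
Mean level over the 8 libraries, in CPM per kilobase of exon on a log axis, against rank for the 291 protein-coding genes tested on the stretches. Red points mark Grhpr at rank 19 and Agxt2 and Galt next to each other at ranks 59 and 60, and the dotted line is the median of 18.5 CPM per kilobase.

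Libraries held between 9578086 and 14932773 counts. The mitochondrial share is that of rows annotated to the mitochondrial genome, which lie outside the stretches and whose names were not checked here. Counts from these rows made up 54.7, 59.2, 64.3 and 58.8% of the total in SostPB/- replicates 1 to 4, against 59.2, 51.6, 49.4 and 47.4% in Sost-/- replicates 1 to 4. The means of 59.3% ± 3.92 and 51.9% ± 5.14 (SD, n = 4 each) had an exact two-sided permutation p of 0.114, and 0.0286 is the smallest that 4 against 4 can give. In the comparison of SostPB/- with Sost-/- livers, edgeR's quasi-likelihood test called 0 of 10020 rows (0%) at an adjusted p under 0.05, and 0 of the 359 stretch rows tested (0%). At an unadjusted p under 0.05 stood 646 rows (6.45%), and 30 of the stretch rows (8.36%). DESeq2 called 52 of 13950 rows (0.373%), none of the 3 genes among them, and limma-voom called 1 row. All 3 genes passed the filter on low counts. Of the 3, 0 passed the adjusted test and 1, Grhpr, had an unadjusted p under 0.05. Their median log2 fold change was -0.06, beside -0.01 over all rows tested.

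Grhpr had the lower mean in SostPB/- livers, at 71.9% of that in Sost-/- livers, but its change did not pass the test. It had 311, 229, 225 and 217 CPM in SostPB/- replicates 1 to 4, against 269, 402, 303 and 392 CPM in Sost-/- replicates 1 to 4. Of the 4 SostPB/- libraries, 3 lay below every Sost-/- library, and replicate 1 of SostPB/- lay above 2 of them, so the groups overlapped. The means were 246 ± 44.0 CPM in SostPB/- and 342 ± 65.7 CPM in Sost-/- (SD, n = 4 each; exact two-sided permutation test, p = 0.0857). The log2 fold change was -0.48 (SE, its standard error, 0.19), with an unadjusted p of 0.0266 and an adjusted p of 0.721 in edgeR's test. Among stretch rows, 15 of 359 (4.18%) had an unadjusted p under 0.05 on the lower side, and 32 had a log2 fold change below that of Grhpr. Leaving out SostPB/- replicate 1 gave -0.61 (SE 0.18, edgeR adjusted p = 0.584), and leaving out Sost-/- replicate 2 gave -0.39 (SE 0.20, edgeR adjusted p = 0.909). For a single gene in bulk liver, fewer cells that express it and less of its RNA per cell cannot be told apart. The 4 hepatocyte markers that could be read are given beside it. Their log2 fold changes in the same fit were -0.04 for Baat (SE 0.17), 0.02 for Decr1 (SE 0.14), 0.15 for Cyp7a1 (SE 0.41) and 0.23 for Prlr (SE 0.24). Whether the part of hepatocytes differs between the groups was not tested.

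**Figure D2:**
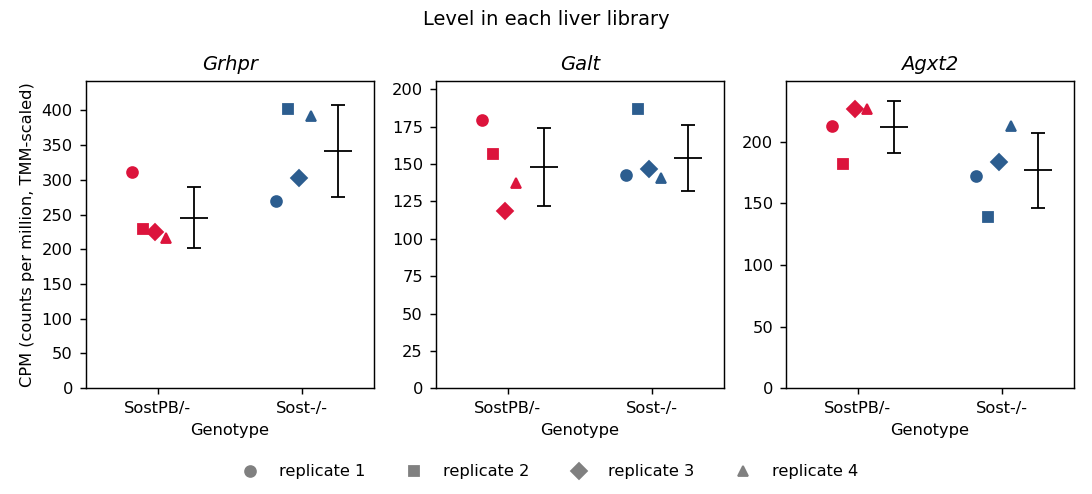
TMM-scaled CPM of Grhpr, Galt and Agxt2 in each library, SostPB/- left and Sost-/- right, with the marker shape giving the replicate number and the bar beside each group its mean and SD (n = 4). Grhpr averaged 246 CPM in SostPB/- and 342 in Sost-/-, Galt 148 and 154, and Agxt2 212 and 177, and the groups overlap in all 3 panels.

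The libraries with more Grhpr were those with a lower mitochondrial share. The 4 libraries with the most Grhpr were Sost-/- replicates 2 and 4, SostPB/- replicate 1 and Sost-/- replicate 3, and mitochondrial counts made up between 47.4% and 54.7% of these. The 4 with the least were SostPB/- replicates 2, 3 and 4 and Sost-/- replicate 1, with mitochondrial shares between 58.8% and 64.3%. The only Sost-/- library in the second set was thus the one with a mitochondrial share like that of SostPB/- livers, and the only SostPB/- library in the first set had the lowest share of its group. With nuclear rows alone in the library sizes the log2 fold change of Grhpr was -0.47 (SE 0.18, edgeR adjusted p = 0.727). What part the mitochondrial share has in the Grhpr values was not tested. Neither Galt nor Agxt2 split along the mitochondrial share in this way. This order was noticed after the values had been seen. Of the 359 stretch rows tested, 29 (8.08%) split without overlap by the same 2 sets of libraries, and 15 (4.18%) did so with the higher values at the lower shares, as Grhpr did.

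**Figure D3:**
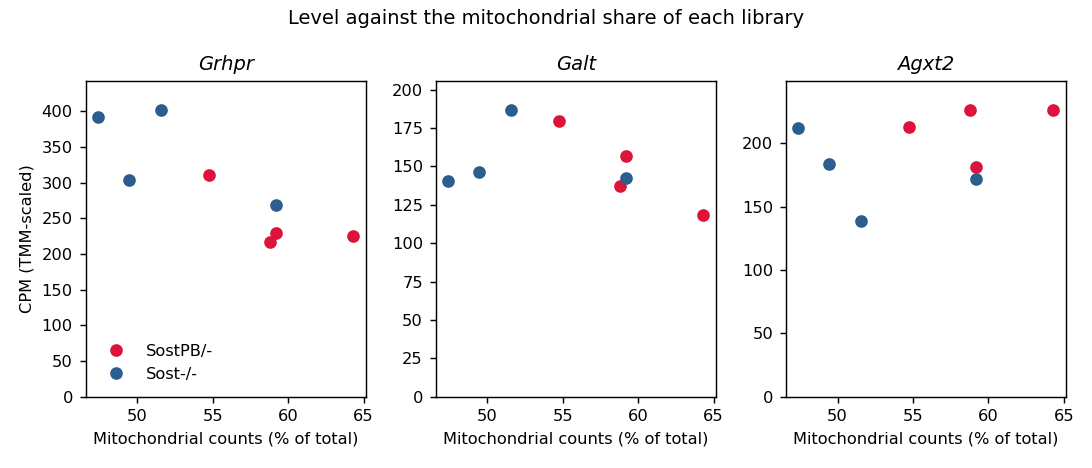
TMM-scaled CPM of each gene against the percent of counts on rows annotated as mitochondrial, 1 point per library, SostPB/- in red and Sost-/- in blue. The 4 libraries with mitochondrial shares up to 54.7% hold the 4 highest Grhpr values, while the points of Galt and Agxt2 mix.

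Agxt2 had the higher mean in SostPB/- livers, 120% of that in Sost-/- livers, and its change did not pass the test either. It had 213, 182, 227 and 227 CPM in SostPB/- replicates 1 to 4, against 172, 139, 183 and 212 CPM in Sost-/- replicates 1 to 4. Of the SostPB/- libraries 3 lay above every Sost-/- library, while SostPB/- replicate 2 lay among them. The means were 212 ± 21.2 CPM in SostPB/- and 177 ± 30.5 CPM in Sost-/- (SD, n = 4 each; exact two-sided permutation test, p = 0.114). The log2 fold change was 0.26 (SE 0.16), with an adjusted p of 0.916 in edgeR's test, and 62 of the 359 stretch rows had a larger one. It was 0.16 (SE 0.16) without Sost-/- replicate 2, the library with the least Agxt2, and 0.37 (SE 0.17) without Sost-/- replicate 4, with edgeR adjusted p values of 0.995 and 0.999. Scaled by plain library totals it was 0.06 (SE 0.20), in a fit where the median of all rows was -0.21. The coefficient of variation of Agxt2 was 9.99% in SostPB/- and 17.3% in Sost-/- livers, beside medians of 18.1% and 18.7% over the 291 protein-coding genes.

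Galt was the gene whose means differed least. It had 179, 157, 118 and 137 CPM in SostPB/- replicates 1 to 4, against 143, 187, 146 and 141 CPM in Sost-/- replicates 1 to 4. SostPB/- replicates 3 and 4 lay below the Sost-/- values and replicates 1 and 2 among them, so the groups overlapped. The means were 148 ± 26.1 CPM in SostPB/- and 154 ± 22.0 CPM in Sost-/- (SD, n = 4 each; exact two-sided permutation test, p = 0.743). The log2 fold change was -0.06 (SE 0.17) at an adjusted p of 0.986 by edgeR, and with SostPB/- replicate 3 left out it was 0.032 and with Sost-/- replicate 2 left out 0.047, so it has no settled sign. Plain library totals gave -0.24 (SE 0.22), again beside a median of -0.21. How many reads of the Galt row come from overlapping annotation was not tested.

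Ratios between the genes within a library do not depend on how libraries are scaled, and they were computed after the values above had been seen. Agxt2 over Grhpr, as a ratio of CPM per kilobase, was 0.347, 0.402, 0.509 and 0.529 in SostPB/- replicates 1 to 4, against 0.324, 0.175, 0.307 and 0.274 in Sost-/- replicates 1 to 4. Every SostPB/- library lay above every Sost-/- library, with SostPB/- replicate 1 just above Sost-/- replicate 1. In CPM itself, 17 of the 359 stretch rows tested (4.74%), and none of the 3 genes, had groups that did not overlap. The means were 0.447 ± 0.0872 in SostPB/- and 0.270 ± 0.0669 in Sost-/- (SD, n = 4 each). Of all 38781 pairs among 279 protein-coding genes on the stretches, 1680 (4.33%) had ratios that did not overlap between the groups. Of the 3 ratios computed, this was the one without overlap.

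Galt over Grhpr was 0.374, 0.444, 0.341 and 0.411 in SostPB/- replicates 1 to 4, against 0.344, 0.302, 0.314 and 0.232 in Sost-/- replicates 1 to 4. The groups met at a single point, where SostPB/- replicate 3 fell just under Sost-/- replicate 1. Agxt2 over Galt averaged 1.15 ± 0.287 in SostPB/- and 0.920 ± 0.2503 in Sost-/- (SD, n = 4 each), with wide overlap.

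**Figure D4:**
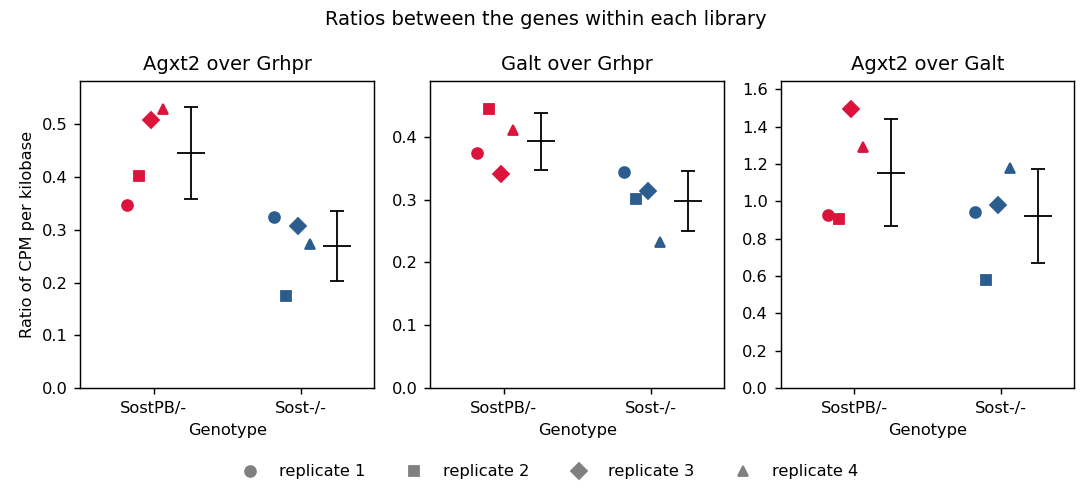
Ratios of CPM per kilobase within each library, SostPB/- left and Sost-/- right, with the marker shape giving the replicate number and the bar the mean and SD (n = 4). Agxt2 over Grhpr averages 0.447 in SostPB/- and 0.270 in Sost-/- without overlap, and the other 2 ratios overlap.

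The genes whose level ran most like each of the 3 over the 8 libraries were sought among 257 other protein-coding stretch genes with a mean of at least 50 counts. The measure was Pearson's r of log2 CPM, over 8 libraries that share their scaling and their genotype groups, and it is a description. Nearest to Grhpr were Skp2, a ubiquitin ligase subunit (r = 0.88), Stoml2, of the mitochondrial inner membrane (r = 0.87), and the signalling adaptor Shb (r = 0.78). Skp2 had a log2 fold change of -0.29 (SE 0.25, edgeR adjusted p = 0.955) and Stoml2 of -0.26 (SE 0.16, edgeR adjusted p = 0.919). Shb had 76.6 ± 27.2 CPM in SostPB/- and 119 ± 17.6 CPM in Sost-/- livers (SD, n = 4 each), a log2 fold change of -0.63 with SE 0.25 and an edgeR adjusted p of 0.721. Nearest to Galt were the co-chaperone Dnajb5 (r = 0.88), the kinase Tesk1 (r = 0.83) and the predicted gene Gm11808 (r = 0.78). Nearest to Agxt2 were Brix1, of ribosome assembly (r = 0.83), the RNA polymerase I subunit Polr1e (r = 0.81) and the co-chaperone Dnaja1 (r = 0.80). None of the 3 genes was among the nearest of another. Grhpr with Galt had r = 0.56, Grhpr with Agxt2 -0.49 and Galt with Agxt2 -0.63.

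Genes next to the 3 on the chromosome were read as well. Beside Grhpr, Zcchc7, of RNA surveillance, had 298 ± 43.0 CPM in SostPB/- and 295 ± 60.4 CPM in Sost-/- (SD, n = 4 each; log2 fold change 0.02, SE 0.18). On its other side the zinc finger gene Zbtb5 had 50.8 ± 5.43 CPM in SostPB/- and 65.7 ± 12.9 CPM in Sost-/- (log2 fold change -0.37, SE 0.18). Beside Agxt2, the prolactin receptor gene Prlr stood at 0.23 on the same scale (SE 0.24) and the co-chaperone Dnajc21 at 0.19 (SE 0.15). Beside Galt, the row of Arid3c held at most 0 counts in any library, and the chemokine gene Ccl27a had a log2 fold change of 0.29 (SE 0.21). None of the 5 with counts passed edgeR's test, with adjusted p values from 0.802 to 0.996.

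The other enzymes around these 3 could not be read. Of 28 genes on lists for galactose, glyoxylate, fructose, and methylarginine and pyrimidine breakdown, 3 lay on the stretches, and these were Galt, Grhpr and Agxt2 themselves. The galactose list, with Galm and Galk1, had 1 of 5 there, and the glyoxylate list, with Agxt, Hao1 and Hoga1, had 2 of 9. The fructose list of 6, with Khk and Tkfc, and the list of 8 with Ddah1 and Abat, had 0 there. No member of any list passed edgeR's test on the stretches, and no value is given for the rows outside them.

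Hepatocyte markers were read beside the liver label. Of 7, the 4 on the stretches were Cyp7a1, Baat, Prlr and Decr1, and all 4 had counts in every library. Baat had 440.5 ± 54.5 CPM in SostPB/- and 452 ± 82.2 CPM in Sost-/- livers, and Decr1 had 990.4 ± 66.8 CPM in SostPB/- and 979 ± 132 CPM in Sost-/- livers (SD, n = 4 each). Cyp7a1 spread more, with 674 ± 378 CPM in SostPB/- and 606 ± 268 CPM in Sost-/- livers. Prlr had 271 ± 57.3 CPM in SostPB/- and 230 ± 74.3 CPM in Sost-/- livers. Per kilobase of exon Prlr was only at rank 156 of the 291 protein-coding genes, below their median. The B cell gene Pax5 was low, with 1.63 ± 1.00 CPM in SostPB/- and 1.35 ± 0.809 CPM in Sost-/- livers. Pax5 too had counts in every library, from 7 to 33, so having counts does not by itself set hepatocyte genes apart. Markers of stellate cells, endothelium, macrophages and bile duct had 0 of 4, 0 of 3, 0 of 3 and 0 of 3 on the stretches, so the part of other cells in the values above was not tested.

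**Figure D5:**
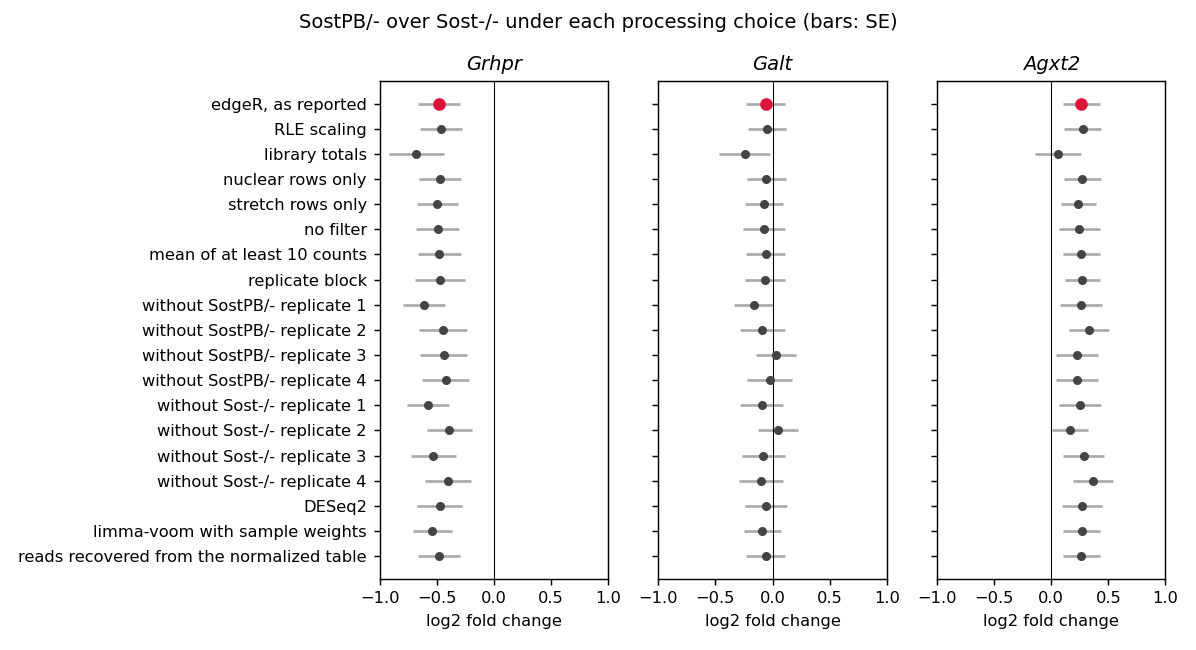
Log2 fold change of SostPB/- over Sost-/- for each gene under the reported edgeR fit (red) and each other processing choice, with bars of 1 standard error. Grhpr stays below 0 and Agxt2 above 0 in every fit shown, while Galt lies on both sides of 0.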

How the data were processed

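The authors deposited whole-number counts per gene row, named by Ensembl ID and symbol, and a normalized signal per symbol. HISAT2, StringTie, DESeq2 and mm10 are named without versions, per the submitters' processing notes; the sources used here state no annotation release, strand setting or filter. Sample titles gave groups and replicate numbers. Each deposited signal column was the counts divided by 1 factor: 100% of values came out whole within 0.01, and the recovered reads equalled the counts for the 3 genes.

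Positions and merged exon lengths came from GENCODE M21 (GRCm38), matched by unversioned ID. The test was that of edgeR 4.0.16, run in R 4.3.3 on the counts (filterByExpr, TMM, glmQLFit, glmQLFTest, Benjamini-Hochberg over all 10020 rows tested, threshold 0.05), and the SE is the log2 fold change over the square root of F. DESeq2 1.42.0 and limma 3.58.1 were alternatives. Scripts were tested on simulated data. There edgeR's test at the same threshold recovered 9.78% of 92 rows changed 2-fold and 63.7% of 91 rows changed 4-fold. It made 6 calls on unchanged rows. A row that does not pass is therefore not shown to be unchanged. The recovered shares are over simulated rows of every dispersion, the spread between libraries beyond counting noise. In edgeR the common dispersion was 0.174, against 0.0491 for Grhpr, 0.0435 for Galt and 0.0411 for Agxt2. Recovery at the dispersions of the 3 genes was not tested. P-values measure the spread between these mice only. Replicate numbers did not pair the libraries. The genes, lists and alternatives were chosen with earlier results of these data known, and the ratios, motifs and recovered-read test after seeing the values. The named genes are the 3, the 3 stretch genes most correlated with each, the nearest coding gene on either side, and list members on the stretches. Overlapping genes, markers, the next genes in rank and some of the list members off the stretches are named too. Some items are not reported here.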

Additional observations from a re-analysis of the deposited data

Results flagged for a closer look

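Groups of 4 libraries were searched for a value far from the other 3, by its gap to the nearest over the whole range of the group by the test of Dixon. This was done on 16 groups, and chance sets apart about 1 in 20. Grhpr in SostPB/- replicate 1 stood apart at 311 CPM, with the other 3 SostPB/- libraries between 217 and 229 CPM. Galt in Sost-/- replicate 2 stood apart at 187 CPM, with the other 3 Sost-/- libraries between 141 and 146 CPM. By total counts, SostPB/- replicate 2 stood apart with 14613316 and Sost-/- replicate 1 with 14932773.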

How the results depend on the processing

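Grhpr kept a negative and Agxt2 a positive log2 fold change under all 10 alternatives and with each library left out, and no alternative brought either, or Galt, past the threshold. Among the 10 was the fit on recovered reads, which are the same counts for the 3 genes and gave the same values as the reported fit. The alternatives ran from -0.68 to -0.46 for Grhpr, from 0.06 to 0.27 for Agxt2 and from -0.24 to -0.05 for Galt. With a library left out the ranges were -0.61 to -0.39, 0.16 to 0.37 and -0.16 to 0.047, where Galt turned to 0.032 without SostPB/- replicate 3 and 0.047 without Sost-/- replicate 2. Plain library totals moved the median of all rows to -0.21, and relative to it Grhpr stood at -0.47, Galt at -0.04 and Agxt2 at 0.26. The replicate block gave -0.47, -0.07 and 0.27 and 0 calls; same-numbered libraries had correlations of -0.04 to 0.04, so they share only a number. Ranks by CPM without division by length were 53 for Grhpr, 101 for Galt and 85 for Agxt2. Beside edgeR's 0 calls over all rows, DESeq2 made 52 (4 on the stretches), no filter 2, limma-voom 1, and leaving out a library 0 to 4 (0 to 1 on the stretches); the cause was not tested.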
